A study of Rattus norvegicus with 40 samples.

Results

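The p53-linked miR-34 family and its relatives miR-449a and miR-449c were followed in plasma small RNA libraries of rats after traumatic brain injury (TBI). The members are the rows of the count matrix named for miR-34a, miR-34b, miR-34c, miR-449a or miR-449c of the rat (prefix rno-), on either arm of the hairpin. The rows were taken by name, but the families were chosen with earlier results of these data known. There are 10 such rows among the 752 miRNAs of the matrix, and reads were found on 9 of them. The study sequenced plasma of 20 adult male Sprague-Dawley rats on day 2 (D2) and again on day 9 (D9) after the operation, which gave 40 libraries. The 16 rats with TBI were injured by lateral fluid percussion, a pressure pulse onto the exposed dura, and the 4 sham-operated controls had anesthesia and craniotomy without the pulse. Video-EEG in the sixth month then divided the injured rats into 7 with epilepsy (TBI+) and 9 without (TBI-). Blood came from the lateral tail vein, and each library is 1 rat on 1 day. A plasma level does not show which tissue released the miRNA, and more releasing cells cannot be told apart from more release per cell.

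MiR-34 is the best known miRNA family under the tumour suppressor p53, which binds near the miR-34a gene and near the shared gene of miR-34b and miR-34c and switches them on after DNA damage. The family slows the cell cycle and favours cell death by repressing cyclins, cyclin-dependent kinases, Bcl2 and Sirt1. The miR-449a/c relatives form a gene cluster that is switched on by E2F1. They are abundant, with miR-34b and miR-34c, in testis and in ciliated epithelia of airway, oviduct and choroid plexus. MiR-34a is the member found most widely across tissues, neurons among them.

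The 5p arms of all 5 hairpins carry the same seed, the bases 2 to 8 through which a miRNA finds its targets. They are shown because they may be expected to share most targets, so that the differences in level described later concern miRNAs with identical seeds. The mature sequences were taken from RefSeq (assembly GRCr8), run 5′ to 3′, and have the seed in capitals.
rno-miR-34a-5p: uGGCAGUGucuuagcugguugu
rno-miR-34b-5p: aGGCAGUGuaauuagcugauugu
rno-miR-34c-5p: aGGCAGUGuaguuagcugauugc
rno-miR-449a-5p: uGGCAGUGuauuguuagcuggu
rno-miR-449c-5p: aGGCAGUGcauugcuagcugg

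Of the 685 miRNAs of the matrix that had a mature sequence in the RefSeq table, 5 had this seed, and these were the 5 family members above. MiR-34b-5p and miR-34c-5p were the closest pair, with 91.3% identity over 23 bases. From miR-34c-5p to miR-34b-5p the substitutions were G11A and C23U, counted from the 5′ end. How the authors' counting assigned a read that fits both sequences is not given in the sources used here, so a part of the counts of either may belong to the other. MiR-34a-5p had 78.3% identity with miR-34c-5p and 68.2% with miR-449a-5p. The 3p arms of miR-34b and miR-34c share a seed of their own, and they are shown because miR-34b-3p was the only 3p arm with many reads.
rno-miR-34b-3p: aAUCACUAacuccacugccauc
rno-miR-34c-3p: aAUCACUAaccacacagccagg

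In the GRCr8 annotation, Mir34b and Mir34c lie next to each other, and Mir34c lies within Hoatz, a gene that ciliated cells use. The genes of miR-449a and miR-449c lie together within the uncharacterized gene LOC134485839, and Mir34a lies within LOC103692514. No coordinates are given because the authors aligned their reads to the older build Rno6.

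The library totals, the sums of reads over all miRNAs, were 404542 to 2562083 on D2. On D9 they were 332161 to 2864893 in TBI rats and 140636 to 358202 in sham-operated rats. Levels are given as CPM, the reads divided by that total and multiplied by 1000000. A floor of 3 reads was worth at most 7.42 CPM in any D2 library and at most 9.03 CPM in TBI libraries of D9, but between 8.38 and 21.3 CPM in the sham libraries of D9. Floors and the intervals of single libraries cover counting error only, since PCR copies are not independent molecules. The library numbers in the column labels were split here into 3 runs at starts set by hand. The labels do not mark these runs, and the numbers have gaps inside them as well. Whether the runs are batches of any step is not given in the sources used here, and "run" below means this split. All 4 sham-operated rats and 4 of the TBI+ rats had their D2 library in the first run and their D9 library in the last, so for them day and run cannot be told apart. On each day the run of the sham libraries held 4 TBI+ libraries and 0 TBI- libraries. TBI- against sham therefore cannot be told apart from run, and TBI against sham only in part. Among blood markers, miR-223-3p of platelets and myeloid cells was at 584 CPM or more and miR-126a-3p of endothelium at 854 CPM or more in every library, while the liver marker miR-122-5p was listed at 0 reads in all 40 libraries. Whether that row is complete could not be told from the sources used here, so nothing is read from it about liver miRNAs in plasma.

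The main plasma member was rno-miR-34c-5p (the prefix is left out from here on), with 3814 reads or 64.4% of all reads of the families, and it exceeded 3 reads in all 40 libraries. MiR-34a-5p, the member under p53 in most tissues, followed with 734 reads and exceeded 3 reads in 37 libraries. MiR-34b-5p exceeded 3 reads in 34 libraries and its partner arm miR-34b-3p in 31. MiR-449a-5p, the ciliated-cell relative, exceeded 3 reads in 32 libraries. The remaining members were near or below the floor: miR-34c-3p exceeded 3 reads in 9 libraries and never had more than 10 reads, and miR-449c-5p exceeded them in 1 library, where it had 6. MiR-34a-3p had 2 reads in the whole series, miR-449c-3p had 1 read, and miR-449a-3p had 0. Thus 7 of the 10 members exceeded 3 reads in at least 1 library, and 5 did so in most libraries.

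The arms were used unequally. The 5p arm had 41.5 times the reads of the 3p arm for miR-34c and 367 times for miR-34a. For miR-34c this ratio, pooled over the libraries of a group, was 23.2 on D2 and 51.7 on D9 in TBI rats. In sham-operated rats it was 180 on D2, from 2 reads of the 3p arm, and higher than in TBI rats on D9 too, from 1 read of the 3p arm. For miR-34b the ratio of 5p to 3p reads over all libraries was 0.952. It was 0.707 in TBI rats on D2 and 1.12 on D9, and 1.03 and 2.5 in sham-operated rats. The value of 2.5 came from 15 reads of the 5p arm, 11 of them in sham rat 3, and 6 reads of the 3p arm. Over all libraries the counts were thus near-equal between the arms for miR-34b and almost only of the 5p arm for miR-34c. A part of the 5p counts of either may belong to the other.

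Levels on D2 in TBI rats (mean CPM ± SD, n = 16) were 47.2 ± 15.3 for miR-34c-5p, 16.1 ± 6.58 for miR-34a-5p, 8.53 ± 4.33 for miR-34b-3p, 6.81 ± 2.67 for miR-34b-5p and 5.93 ± 3.76 for miR-449a-5p. MiR-34c-5p stood above miR-34a-5p by more than their SDs, and every later pair of neighbours overlapped within theirs. On D9 in TBI rats the values were 140 ± 97.2 for miR-34c-5p, 18.2 ± 19.1 for miR-34b-5p, 16.3 ± 7.74 for miR-34a-5p, 11.3 ± 6.53 for miR-449a-5p and 10.9 ± 5.54 for miR-34b-3p (SD, n = 16). Below miR-34c-5p, no neighbours in the D9 order differed beyond their SDs. The mature 5p sequences are 21 to 23 bases long, and the order of these 5 members was the same per base.

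**Figure D1:**
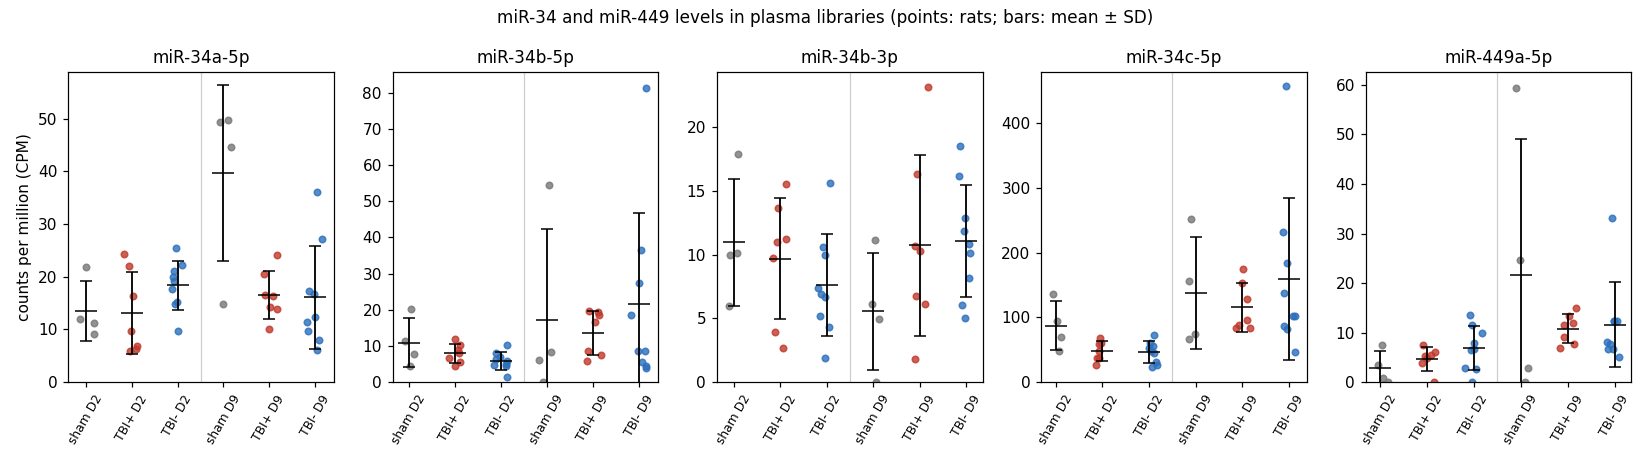
CPM (linear axis from 0) of the 5 members with most reads, 1 panel per miRNA, in sham-operated, TBI+ and TBI- rats on D2 and D9; points are rats, horizontal marks the mean and bars ± SD, cut at 0. MiR-34a-5p is high in 3 of 4 sham libraries of D9, miR-34c-5p is higher on D9 than on D2 in TBI rats, and 1 TBI- library of D9 reaches 458 CPM for miR-34c-5p.

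Between the days in TBI rats, miR-34c-5p and miR-34b-5p were called higher on D9, and the members were not tested against each other. MiR-34c-5p was between 23.8 and 72.9 CPM on D2 (median 48.3, n = 16) and between 46.5 and 458 CPM on D9 (median 102.1). In 15 of the 16 rats the D9 level was the higher one, and in these rats every D9 level, from 82.7 CPM upward, lay above the highest D2 level. The exception was TBI- rat 9, with 53.5 CPM on D2 and 46.5 CPM on D9. The edgeR quasi-likelihood test over all 581 miRNAs with a read gave a log2 fold change of 1.55 ± 0.23 (SE) and a Benjamini-Hochberg adjusted p of 9.28e-07. An exact permutation test over the signs of the rats' differences in CPM gave p = 6.104e-05, two-sided and unadjusted. The rise was seen in 7 of 7 TBI+ rats, from a mean of 48.3 to 115 CPM, and in 8 of 9 TBI- rats, from 46.4 to 159 CPM.

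MiR-34b-5p, from the neighbouring gene, was also higher on D9, but a part of its counts may belong to miR-34c-5p. Its level was between 1.54 and 11.9 CPM on D2 (median 6.49, n = 16) and between 3.94 and 81.3 CPM on D9 (median 12.6). The ranges overlapped, and 12 of 16 rats were higher on D9. Its log2 fold change was 1.25 ± 0.36 (SE; edgeR, adjusted p = 0.00545). These 2 members were the only ones called in this comparison, out of 9 with a read. Among all miRNAs 32% were called between the days in TBI rats, and 13.9% were called as higher, so a call in this comparison was common.

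The other members gave no call. MiR-449a-5p was between 0 and 13.6 CPM on D2 (median 5.74) and between 5.05 and 33.1 CPM on D9 (median 10.3), and it was higher on D9 in 13 of 16 rats. Its log2 fold change was 0.79 ± 0.35 (SE; edgeR, adjusted p = 0.0742), and with the rat as a block it was 0.88 with an adjusted p of 0.0318, which made it a call as well. MiR-34a-5p was between 5.95 and 25.4 CPM on D2 (median 17.05) and between 6.11 and 36.1 CPM on D9 (median 15.3). It was higher on D9 in 8 of 16 rats, with a log2 fold change of -0.03 and a 95% interval from -0.47 to 0.42. MiR-34b-3p had a log2 fold change of 0.33 (95% interval -0.20 to 0.86) and was higher on D9 in 9 of 16 rats.

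One library weighed on these results. TBI- rat 2 on D9 had the smallest total of the TBI libraries of that day, 332161 reads, and the highest levels of miR-34c-5p (458 CPM), miR-34b-5p (81.3 CPM, 27 reads), miR-449a-5p (33.1 CPM, 11 reads) and miR-34a-5p (36.1 CPM, 12 reads) among the TBI libraries of D9. Its level of the endothelial marker miR-126a-3p, 6434 CPM, was the highest of the 20 D9 libraries. Without this rat, miR-34c-5p remained called, with a log2 fold change of 1.17 (edgeR, adjusted p = 1.84e-05), and its D9 mean was 118.7 ± 49.3 CPM (SD, n = 15). MiR-34b-5p then had a log2 fold change of 0.82 and an adjusted p of 0.0551. Leaving out this rat was chosen after the data were seen.

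Within the middle run of library numbers, with 8 D2 and 4 D9 libraries of TBI rats, miR-34c-5p was 1.09 higher on the log2 scale on D9 (edgeR, adjusted p = 0.00539). MiR-34b-5p was 0.50 higher there (edgeR, adjusted p = 0.469). The D9 libraries of this run were all of TBI- rats, and its D2 libraries were of both outcome groups. Only TBI- rat 5 had both days in it, so this comparison is mostly between different rats and is mixed with outcome. Blood cell miRNAs moved in the same direction: all 5 red blood cell marker rows in the matrix were called higher on D9 in TBI rats. They were both arms of miR-451 and of miR-144, and miR-363-3p, while miR-486 of the list was absent. Their summed level went from 1743 to 6702 CPM on D2 (median 3823) to 2721 to 13795 CPM on D9 (median 6408). MiR-223-3p, a marker of platelets and myeloid cells, was 0.51 higher and miR-126a-3p 0.84 higher on the log2 scale, both called. The part of these cells in the miR-34c-5p result was not tested. Of the epithelial markers, 1 of 5 was called higher, miR-200c-3p, a call that held in 4 of 7 alternatives. Neuronal markers went the other way, with 2 of 4 called lower and 0 higher.

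**Figure D2:**
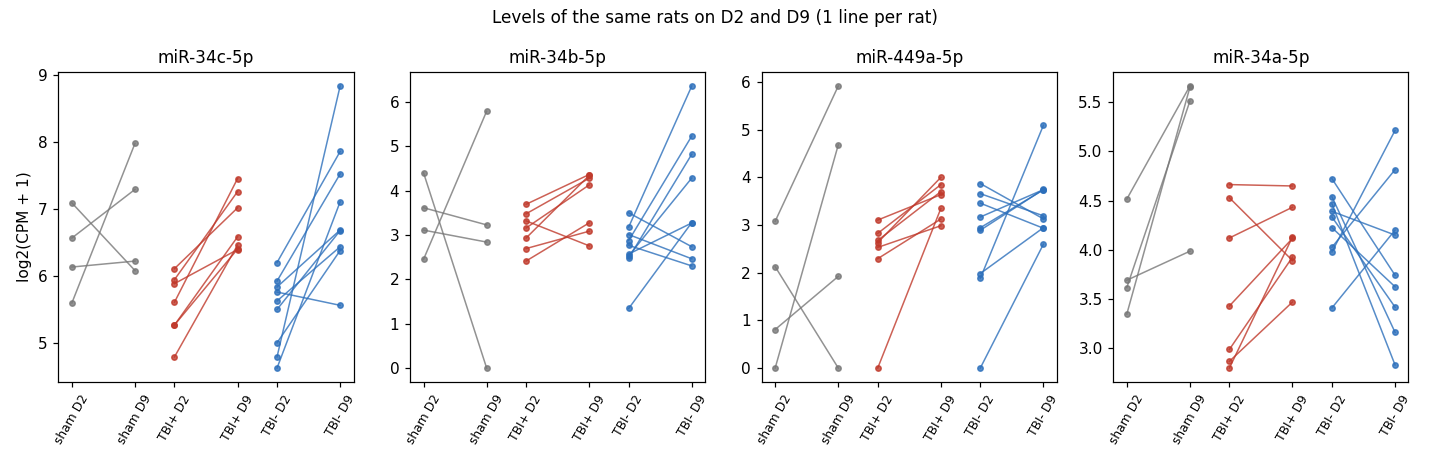
log2(CPM + 1) on D2 and D9, 1 line per rat, for 4 members in sham-operated, TBI+ and TBI- rats; the vertical axes differ between panels. MiR-34c-5p goes up in 15 of 16 TBI rats, whereas miR-34a-5p goes up in 4 of 4 sham-operated rats and in 8 of 16 TBI rats.

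In sham-operated rats miR-34a-5p and miR-449a-5p were called higher on D9 than on D2. MiR-34a-5p had 21.9, 9.17, 11.9 and 11.3 CPM in sham rats 1 to 4 on D2, from 13, 12, 8 and 15 reads. On D9 it had 49.8, 49.3, 14.8 and 44.7 CPM, from 7, 8, 3 and 16 reads. All 4 rats were higher on D9, and sham rat 3 was only slightly so. The log2 fold change was 1.57 ± 0.51 (SE; edgeR, adjusted p = 0.0480), close to the threshold. With the rat as a block the adjusted p was 0.0979, and with any 1 sham rat left out it was between 0.0871 and 0.307. The exact permutation test gave p = 0.125, the smallest that 4 rats allow.

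MiR-449a-5p was the other member called in sham-operated rats, out of 9, with 6.71% of all miRNAs called in either direction and 2.93% called as higher. It had 3.37, 0, 7.45 and 0.751 CPM on D2, from 2, 0, 5 and 1 reads. On D9 it had 0, 24.7, 59.4 and 2.79 CPM, from 0, 4, 12 and 1 reads. Sham rats 2 and 3 carried the difference, and sham rat 1 went the other way. Its estimated log2 fold change was 3.15 ± 0.88 (SE; edgeR, adjusted p = 0.0185). Without sham rat 2 the adjusted p was 0.175, and without sham rat 3 it was 0.219. Thinning every library to the smallest total left neither member called. In the same comparison 1 of 5 epithelial markers was called higher, miR-200c-3p (log2 fold change 2.56), and 1 of 4 neuronal markers lower, miR-128-3p (log2 fold change -1.25). Without sham rat 2, miR-200c-3p was at 0.83 (edgeR, adjusted p = 0.529). The summed level of the 5 epithelial markers went from 1382 to 2261 CPM on D2 (median 1844) to 1614 to 4281 CPM on D9 (median 2283). The part of these cells in the results of both members was not tested.

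MiR-34c-5p had 94.2, 69.5, 47.7 and 136 CPM in the sham-operated rats on D2 and 156.4, 74.0, 252 and 67.0 CPM on D9. It was higher on D9 in 3 of 4 rats, and sham rat 4 fell from the highest level to the lowest. It had a log2 fold change of 0.68 (95% interval -0.25 to 1.62). MiR-34b-5p had 0, 6.17, 54.4 and 8.38 CPM on D9, from 0, 1, 11 and 3 reads, after 20.2, 7.64, 4.47 and 11.3 CPM on D2. Only sham rat 3 was higher on D9, and without it the log2 fold change of 0.76 became -1.15. Sham rat 3 on D9 was thus high in miR-34b-5p, miR-34c-5p and miR-449a-5p and low in miR-34a-5p.

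Between TBI and sham-operated rats on D2, the difference was largest in CPM for miR-34c-5p, which had a lower mean after injury (47.2 ± 15.3 CPM, SD, n = 16) than after sham operation (86.8 ± 37.8 CPM, SD, n = 4) but was not called. Against the sham values above, TBI rats had 23.8 to 72.9 CPM, and sham rats 1 and 4 lay above all of them. The log2 fold change was -0.74 ± 0.26 (SE; edgeR, adjusted p = 0.0967), and the exact permutation test of the CPM means, two-sided and unadjusted, gave p = 0.0120. Within the first run of library numbers, 4 TBI+ against 4 sham-operated rats, it was -0.85 (adjusted p = 0.149). Without sham rat 3 the log2 fold change was -0.96 with an adjusted p of 0.0447, and without sham rat 4 it was -0.47 with an adjusted p of 0.445. Scaling by the library total gave -0.88 and an adjusted p of 0.0432.

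Of the other members on D2, miR-34a-5p had a log2 fold change of 0.45 (95% interval -0.30 to 1.19) and miR-34b-5p of -0.49 (-1.27 to 0.30). MiR-449a-5p, at 0 to 7.45 CPM in sham-operated and 0 to 13.6 CPM in TBI rats, had a log2 fold change of 1.49 ± 0.73 (SE; edgeR, adjusted p = 0.273). None of the members was called by edgeR or DESeq2 on D2, 2 had an unadjusted p under 0.05 in edgeR, and 6.19% of all miRNAs were called by edgeR and 8.14% by DESeq2.

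On D9 miR-34a-5p was lower in TBI than in sham-operated rats by a margin near the threshold. TBI rats had between 6.11 and 36.1 CPM (median 15.3, n = 16), and sham rats 1, 2 and 4, at 44.7 CPM or more, lay above all of them, while sham rat 3, at 14.8 CPM, lay below the TBI median. The log2 fold change was -1.22 ± 0.41 (SE; edgeR, adjusted p = 0.0822), and the exact permutation test of the CPM means gave p = 0.00454, two-sided and unadjusted. DESeq2 gave -1.37 with an adjusted p of 0.0148, and removal of miRNAs with low counts gave -1.33 with an adjusted p of 0.0359. The study itself used DESeq2 and listed miR-34a-5p as downregulated on D9 in TBI and in TBI- rats against sham, but not in TBI+ rats. Over all alternatives fitted across miRNAs the estimate was between -1.52 and -1.09 and the adjusted p between 0.0148 and 0.461. Within the last run of library numbers, 4 TBI+ against 4 sham-operated rats, the log2 fold change was -1.33 (adjusted p = 0.461).

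The 34 sham reads behind this value came from 4 libraries of 140636 to 358202 reads, of which sham rat 4, the deepest, gave 16. The 95% exact binomial intervals of miR-34a-5p were 20.01 to 102.6 CPM in sham rat 1, 21.3 to 97.2 CPM in sham rat 2, 3.06 to 43.4 CPM in sham rat 3 and 25.5 to 72.5 CPM in sham rat 4. Each of the 4 intervals overlapped the TBI range of 6.11 to 36.1 CPM. Thinning to the smallest total gave -1.37 with an adjusted p of 0.145. Plasma D9 libraries of sham-operated rats also had less miR-223-3p, 584 to 2412 CPM against 975 to 4259 CPM in TBI rats, with a log2 fold change of 0.96 for TBI that was not called.

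MiR-34c-5p was not called on D9, with 67.0 to 252 CPM in sham-operated and 46.5 to 458 CPM in TBI rats. Its log2 fold change was 0.12 (95% interval -0.72 to 0.96) and its sign changed with the scaling. MiR-34b-5p was at -0.01 (-1.28 to 1.26), miR-34b-3p at 0.84 (-0.43 to 2.11) and miR-449a-5p at -0.84 (-1.98 to 0.30). No member was called on D9 by edgeR and 1 by DESeq2, where edgeR called 3.51% and DESeq2 4.81% of all miRNAs. In edgeR 1 member had an unadjusted p under 0.05, as did 86 of the 541 miRNAs tested. The median over all miRNAs tested was 0.30 on D9, and the other scalings moved it by between -0.11 and -0.21.

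Whether the change between the days differed between TBI and sham-operated rats was tested as an interaction. For miR-34a-5p the difference of the changes was -1.59 ± 0.56 on the log2 scale (SE; edgeR, adjusted p = 0.0991). It was -1.69 with an adjusted p of 0.0475 after low counts were removed, and -1.90 with an adjusted p of 0.0269 without TBI- rat 2. For miR-34c-5p it was 0.87, which was not called either. None of the members was called, where 3.79% of all miRNAs were called. In the same edgeR test 2 members had an unadjusted p under 0.05, as did 92 of the 581 miRNAs tested.

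**Figure D3:**
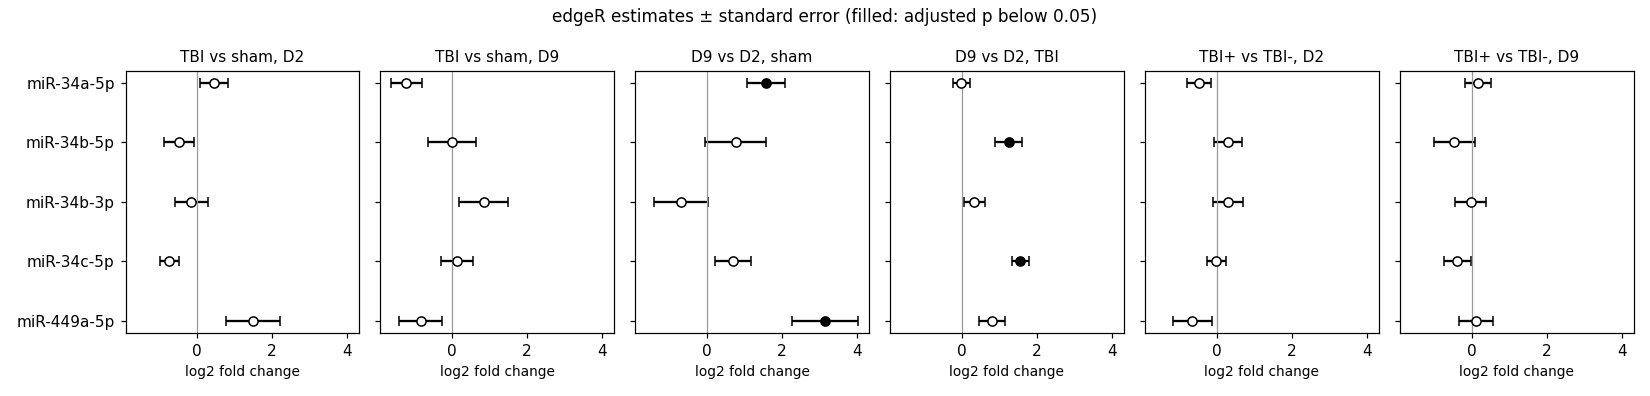
Log2 fold changes (points) ± SE (bars) from edgeR for 5 members in 6 comparisons, filled where the adjusted p over all miRNAs was below 0.05; the first-named group is the one that is higher to the right of 0. The 4 filled points are miR-34b-5p and miR-34c-5p for D9 against D2 in TBI rats, and miR-34a-5p and miR-449a-5p for D9 against D2 in sham-operated rats.

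The ratio of miR-34c-5p to miR-34a-5p reads within a library does not depend on scaling. On D2 it was 4.31, 7.58, 4.00 and 12.1 in sham rats 1 to 4 and between 1.19 and 7.00 in TBI rats (median 2.86, n = 16). On D9 it was 3.14, 1.5, 17 and 1.5 in sham-operated rats and between 3.47 and 38.0 in TBI rats (median 8.05). The median ratio was higher on D9 than on D2 in TBI rats, and in sham rats 1, 2 and 4 the ratio was lower on D9. The ratio of miR-34c-5p to miR-34b-5p, pooled over the libraries of TBI rats, was 7.28 on D2 and 9.65 on D9. The ratios are a description, as small counts of miR-34a-5p make single values uncertain.

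**Figure D4:**
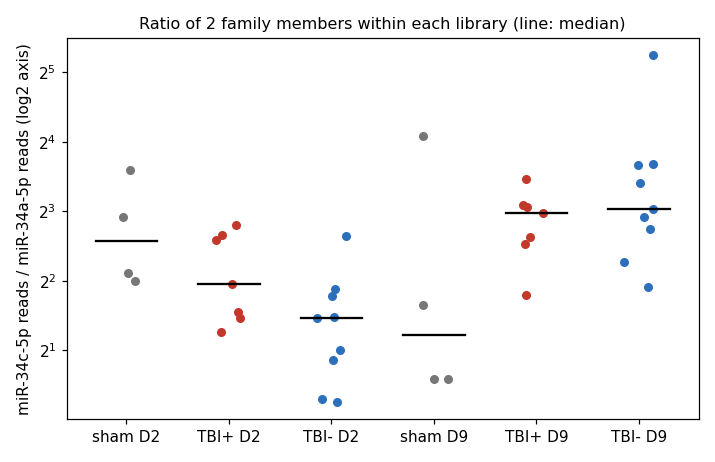
Reads of miR-34c-5p divided by reads of miR-34a-5p in each library (log2 axis) for sham-operated, TBI+ and TBI- rats on D2 and D9; points are rats and lines medians. TBI+ and TBI- rats both have higher medians on D9 (7.90 and 8.21) than on D2 (3.88 and 2.75), and 3 of the 4 sham libraries of D9 lie at 3.14 or below.

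No member was called between rats with and without epilepsy. On D2 miR-34a-5p was 13.1 ± 7.80 CPM in TBI+ rats (SD, n = 7) and 18.4 ± 4.68 CPM in TBI- rats (SD, n = 9), a log2 fold change of -0.48 (95% interval -1.10 to 0.13). MiR-34c-5p was 48.3 ± 14.99 CPM in TBI+ and 46.4 ± 16.5 CPM in TBI- rats on D2, with an interval of the log2 fold change from -0.51 to 0.47. On D9 the interval was -1.11 to 0.31 for miR-34c-5p and -0.54 to 0.85 for miR-34a-5p. None of the members was called by edgeR or DESeq2 on either day, and the share of all miRNAs called was 0% on both. The rarest 5p arm, miR-449c-5p, had on D9 11 reads spread over 4 of 7 TBI+ rats, 6 of them in TBI+ rat 7, and 1 read over the 9 TBI- rats (edgeR, adjusted p = 0.802).

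Each outcome group was also compared with the sham-operated rats. MiR-34c-5p on D2 had a log2 fold change of -0.75 in TBI+ rats (adjusted p = 0.181, with 3.19% of all miRNAs called) and of -0.73 in TBI- rats (edgeR, adjusted p = 0.184, with 6.19% called). MiR-34a-5p on D9 had -1.14 in TBI+ rats (adjusted p = 0.257, with 1.85% called) and -1.29 in TBI- rats (edgeR, adjusted p = 0.115, with 4.81% called). DESeq2 called miR-34a-5p in the latter comparison, with an adjusted p of 0.0216 and 4.07% of all miRNAs called. These comparisons share their sham-operated rats. No TBI- library was in the run of the sham libraries on either day, so TBI- against sham cannot be told apart from run.

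Among the 5 members with most reads, miR-34b-5p and miR-34c-5p had the highest rank correlation over libraries. Spearman's rank correlation of this pair was 0.50 over the 20 D2 libraries and 0.77 over the 20 D9 libraries, each with groups and library depth in common. Reads assigned to the wrong member of this near-identical pair may also enter these values, which was not tested. For miR-34a-5p with miR-34c-5p the rank correlation was 0.09 on D2 and 0.08 on D9. The 2 arms of miR-34b had -0.21 on D2 and 0.15 on D9. Among the 359 miRNAs with a read in at least 16 of the 20 D2 libraries, the 5 most like miR-34c-5p in CPM on D2 were miR-142-3p (rank correlation 0.70), miR-16-3p (0.69), miR-361-3p (0.67), miR-147 (0.64) and miR-532-5p (0.63). On D9 the rank correlation was 0.76 for miR-142-3p and for miR-147, and 0.00, 0.29 and -0.21 for the other three. MiR-142-3p is a miRNA of blood cells, and miR-34b-5p ranked 17th on D2.

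Other miRNAs linked to p53 gave no common direction. Of miRNAs that p53 activates or helps to process, 18 rows were in the matrix and 17 had reads. Between the days in TBI rats 4 of them were called higher and 6 lower, where 32% of all miRNAs were called in either direction and 13.9% as higher. Those higher were miR-16-5p (0.59), miR-16-3p (1.06), miR-194-5p (0.81) and miR-200c-3p (0.72), of which miR-16 is abundant in red blood cells. The call of miR-200c-3p held in 4 of 7 alternatives and that of miR-194-5p in 6 of 7, with adjusted p up to 0.356 and 0.519 in edgeR. Those lower were miR-145-5p (-2.42), miR-145-3p (-1.55) and miR-143-3p (-0.89), which mark smooth muscle, and miR-22-5p (-1.55), miR-22-3p (-0.53) and miR-107-3p (-0.87). The median log2 fold change of the 17 was 0.42, against 0.06 for all miRNAs tested.

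In sham-operated rats miR-194-5p (2.15) and miR-200c-3p (2.56) were called higher on D9 and miR-145-5p (-1.99) lower, with a median of 0.08 for the 17, against 0.00 for all miRNAs, of which 6.71% were called. Without sham rat 2, miR-194-5p was at 0.80 (edgeR, adjusted p = 0.624) and miR-200c-3p at 0.83 (adjusted p = 0.529). Between TBI and sham-operated rats none of the 17 was called on D2, and 1 was lower on D9, miR-200c-3p (-2.49, edgeR, adjusted p = 0.000144). Against TBI- rats alone miR-194-5p was also called lower (-1.61). These differences rested on 1 sham library: without sham rat 2, miR-200c-3p had a log2 fold change of -0.80 on D9 (adjusted p = 0.437) and miR-194-5p of -0.31 (adjusted p = 0.882).

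Of miRNAs that repress p53 itself, 9 rows were in the matrix. Between the days in TBI rats miR-33-5p (1.18), miR-30d-3p (0.47) and miR-30d-5p (0.32) were called higher, and miR-125b-5p (-0.57), miR-125b-1-3p (-0.95) and miR-125b-2-3p (-0.72) lower, where 32% of all miRNAs were called. The calls of miR-30d-3p and miR-30d-5p held in 3 of 7 alternatives each, with adjusted p up to 0.235 and 0.387 in edgeR. In sham-operated rats miR-125b-2-3p (-1.02) was called lower, where 6.71% of all miRNAs were called, and this call held in 3 of 9 alternatives (adjusted p up to 0.327). On D9 miR-25-5p was lower in TBI than in sham-operated rats (-1.94, edgeR, adjusted p = 0.0229), and without sham rat 2 it had -0.53 (adjusted p = 0.809). On D2 none of the 9 was called.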

How the data were processed

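Small RNA of plasma was sequenced in 40 libraries of 20 rats. The authors trimmed reads with Trimmomatic (version 0.36), aligned them to Rno6 with Bowtie2, merged the flow cells and counted reads per miRBase miRNA with featureCounts; the deposited values are raw read counts. From these counts, library totals, CPM and edgeR quasi-likelihood tests (TMM, edgeR 4.0.16, R 4.3.3) were computed, with Benjamini-Hochberg adjustment over all miRNAs with a read in the fit and a threshold of 0.05.

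TBI was compared with sham per day in a fit of 2 groups, and TBI+ and TBI- with sham and each other in a fit of 3 groups. D9 was compared with D2, and the interaction tested, in a fit of the 40 libraries without a term for the rat. Both libraries of a rat thus entered these tests as independent, and the rat as a block was an alternative. The SE is the size of the log2 fold change divided by the square root of F, and the 95% interval is 1.96 SE to either side. Exact permutation tests of CPM covered 5 members (20 tests within days, 10 between days). D2 and D9 libraries are paired by rat, from the titles; deviations of the same rat had a median correlation of -0.03 over 130 miRNAs, with 8 of 20 rats over 0.1.

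Alternatives were DESeq2 (1.42.0), other scalings, a filter on low counts, thinning, blocks, 1 run of library numbers and rats left out. No pair of libraries was identical. The fits were tested on simulated data. The families, the p53 lists and the marker lists were chosen with earlier results of these data known. Named miRNAs are all family members, list members called in a reported comparison, and the 5 miRNAs most like miR-34c-5p; markers are named where they move with a result, and miR-122-5p because its row holds no reads. Tables and exact tests were made with scipy 1.17.1 and pandas 2.3.3 under Python 3.11.15. The RT-qPCR, ddPCR and imaging data were not analysed here.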

Additional observations from a re-analysis of the deposited data

Results flagged for a closer look

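In 30 groups of 4, 7 or 9 rats, each holding 1 member's levels in 1 group on 1 day, a library standing apart from its group by Dixon's 95% criterion was found 5 times. The criterion flags about 1 in 20 independent normal samples. These groups hold low counts and share libraries, so the number found cannot be set against that rate. All 5 lay in 2 libraries of D9. In sham-operated rats on D9, sham rat 3 was lowest for miR-34a-5p, with 14.8 CPM from 3 reads against 44.7 CPM in the next rat. The same library was highest for miR-34b-5p, with 54.4 CPM from 11 reads against 8.38 CPM in the next rat. In TBI- rats on D9, TBI- rat 2 was highest for miR-34b-5p (81.3 against 36.6 CPM), miR-34c-5p (458 against 232 CPM) and miR-449a-5p (33.1 against 12.4 CPM). The 2 libraries had 202059 and 332161 reads. Sham rat 3 had the lowest summed red blood cell markers of the 20 D9 libraries, 2489 CPM, and TBI- rat 2 ranked 17th with 3393 CPM. Their summed epithelial markers, 1638 and 1584 CPM, ranked 14th and 16th. The part of these levels in the member levels was not tested.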

How the results depend on the processing

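Between the days in TBI rats, 2 members were called; 1 was called without TBI- rat 2 and 1 within the middle run of library numbers, both chosen after the data were seen. The log2 fold change of miR-34a-5p there turned from -0.03 to 0.00725 with the rat as replicate block, 0.0643 with miR-28-3p scaling, 0.698 after thinning, 0.0791 within the middle run and 0.0191 from mean CPM. Between the days in sham-operated rats, 2 calls became 1 with the rat as block, 1 with library totals, 0 after thinning and 0 to 1 with a sham rat left out; miR-34b-5p then ranged from -1.15 (without sham rat 3) to 1.34 and miR-34c-5p from -0.0615 (without sham rat 3) to 1.29.

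For TBI against sham on D2, 0 calls became 1 with library totals and 0 to 1 with a sham rat left out (1 without sham rat 3). MiR-34a-5p turned to -0.0256 after thinning and -0.141 within 1 run, and miR-34b-3p to 0.0219 within 1 run, with -0.403 to 0.176 (without sham rat 3) when a sham rat was left out. On D9, 0 calls became 1 with DESeq2, with the filter on low counts and without TBI- rat 2, and 0 to 1 with a sham rat left out (1 without sham rat 3). The same holds for TBI- against sham. On D9 miR-34b-5p turned to 0.516 with the animal number as block and 0.0771 from mean CPM, with -0.454 to 1.54 (without sham rat 3) when a sham rat was left out. MiR-34c-5p turned to -0.0686 with DESeq2, -0.0701 with RLE size factors, -0.0542 with the filter, -0.308 after thinning, -0.254 within 1 run, -0.266 and -0.12 without sham rats 2 and 4 (0.565 without sham rat 3), and -0.0838 without TBI- rat 2. MiR-449a-5p ranged from -1.3 to 0.474 (without sham rat 3).

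For TBI+ against TBI-, miR-34c-5p on D2 turned to 0.00939 with DESeq2, 0.00874 with RLE, 0.0586 with library totals and 0.0956 with miR-28-3p scaling, and miR-34a-5p on D9 to -0.0718 after thinning. For the change between days, 0 calls became 1 with the filter and 1 without TBI- rat 2, and miR-34b-5p turned to -0.0358 without TBI- rat 2 and ranged from -0.156 (without sham rat 1) to 2.4 with a sham rat left out. The causes were not tested. With the rat as block, miR-449a-5p was gained in TBI rats (adjusted p = 0.0318), miR-34a-5p was lost in sham-operated rats (adjusted p = 0.0979) and no other member's call changed. Animals of different groups that carry the same number had a median correlation of -0.12, so that block joins rats that share only a number.

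The 4 sham-operated rats limit every comparison with them, and their D9 libraries, at 140636 to 358202 reads, leave members below 21.3 CPM near 3 reads. Of 351 alternative fold changes, 291 kept their direction and their side of the threshold, and 92 of 113 counts of calls stayed within 1.5 times the reported count. Most comparisons had 0 calls as reported, where an unchanged count says little.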
